A study of Homo sapiens with 9 samples.

Results

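UPF1 is an RNA helicase known mainly from nonsense-mediated decay (NMD), but other decay routes also use it, each through partners of its own. The 6 genes described here encode such partners: STAU1, STAU2, PNRC2, ZC3H12A, SLBP and MOV10. They were taken by name as known partners of these routes, with earlier results of these data known, and make up 6 of the 58214 genes and 68 of the 198775 transcripts that could be joined to an annotation. As background, the Staufen proteins STAU1 and STAU2 bind double-stranded RNA and bring UPF1 to messages with base-paired untranslated regions. PNRC2 links UPF1 to the decapping machinery, and ZC3H12A, also called Regnase-1, is an endonuclease that cleaves stem-loops of inflammatory messages together with UPF1. SLBP binds the stem-loop that ends replication-dependent histone mRNAs, whose decay at the close of S phase needs UPF1, and MOV10 is an RNA helicase that binds UPF1 and the Argonaute silencing proteins. The comparisons ask whether the messages of these partners changed in level or isoform when UPF1, or the NMD helicase DHX34, was depleted.

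Poly(A) RNA was sequenced from K562, an established human erythroleukaemia line, in 9 libraries. The study lists a pool of non-targeting siRNAs for SCR cells (treatment field WT) and a pool against DHX34 for DHX34 knockdown cells (DHX34-kd). For UPF1 knockdown cells (UPF1-kd) it lists siRNAs I and II against UPF1. Each group had 3 libraries. All cells were harvested 4 days after the first transfection and had been transfected again on day 3. The sample titles name the line K562 while the cell line field reads K652, and the labels do not describe separate cultures. The study's methods call the libraries of a group biological replicates, and p-values measure the spread between them.

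Library totals ran from 73478797 to 103625443 expected counts. DHX34 fell in the DHX34 knockdown by 1.23 on the log2 scale (SE 0.0501) and UPF1 in the UPF1 knockdown by 1.31 (SE 0.0308). Neither knockdown moved the other target past the threshold in scaled counts, with log2 differences of -0.01 for UPF1 and 0.02 for DHX34. By TPM, a level scaled for transcript length and library size, both lay above SCR without overlap. DHX34 read 21.93 to 22.96 TPM after UPF1 knockdown against 18.15 to 19.42 TPM in SCR. UPF1 read 52.69 to 54.85 TPM after DHX34 knockdown against 46.35 to 51.4 TPM in SCR. All 8 erythroid markers checked were present in every group, among them GATA1 at 184.5 to 225.5 TPM and KLF1 at 132.0 to 162.6 TPM. The 8 summed to 18320 to 19590 TPM in SCR, 16840 to 18690 TPM in DHX34-kd and 11750 to 12590 TPM in UPF1-kd, mostly from the fetal globin genes HBG2 and HBG1, which had means of 12550 and 5401 TPM in SCR and 7470 and 3743 TPM in the UPF1 knockdown. Of 4 genes that mark other cell types, KRT5 was listed at 0 in all 9 libraries, ALB and CD14 stayed at or under 0.184 TPM, and COL1A1 reached 1.04 TPM. Those 4 genes summed to 0.108 to 0.452 TPM in SCR, 0.936 to 1.09 TPM in DHX34-kd and 0.153 to 0.330 TPM in the UPF1 knockdown, and the part of either set in the results was not tested.

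MOV10 rose in both knockdowns, by 26.5% after DHX34 knockdown and by 26.1% after UPF1 knockdown. SLBP and STAU2 fell after UPF1 knockdown, by 16.4% and 15.6% in scaled counts, and both were also lower than in the DHX34 knockdown. STAU1 and PNRC2 passed the test as lower after UPF1 knockdown in scaled counts, by 8.3% and 8.5%, but were higher than in SCR by TPM. ZC3H12A passed in no comparison. These calls used edgeR's quasi-likelihood test with Benjamini-Hochberg adjustment over all genes, at an adjusted p of at most 0.005. After DHX34 knockdown 1 of the 6 genes was called, where 10.4% of all 17004 genes tested were, 5.54% higher and 4.86% lower. After UPF1 knockdown 5 of the 6 were called, 1 higher and 4 lower, where 25.3% of 17184 genes were, 12.4% higher and 12.9% lower. Between the knockdowns 2 of the 6 were called, both lower in the UPF1 knockdown, where 17.4% of 17435 genes were, 9.89% higher and 7.47% lower. In scaled counts the libraries of a knockdown and SCR did not overlap for 4 of the 6 genes after DHX34 knockdown and 5 after UPF1 knockdown, as for 41.5% and 50.5% of all genes, and those of the knockdowns did not overlap for 4, as for 45.7%. Both knockdowns were compared with the same 3 SCR libraries.

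**Figure D1:**
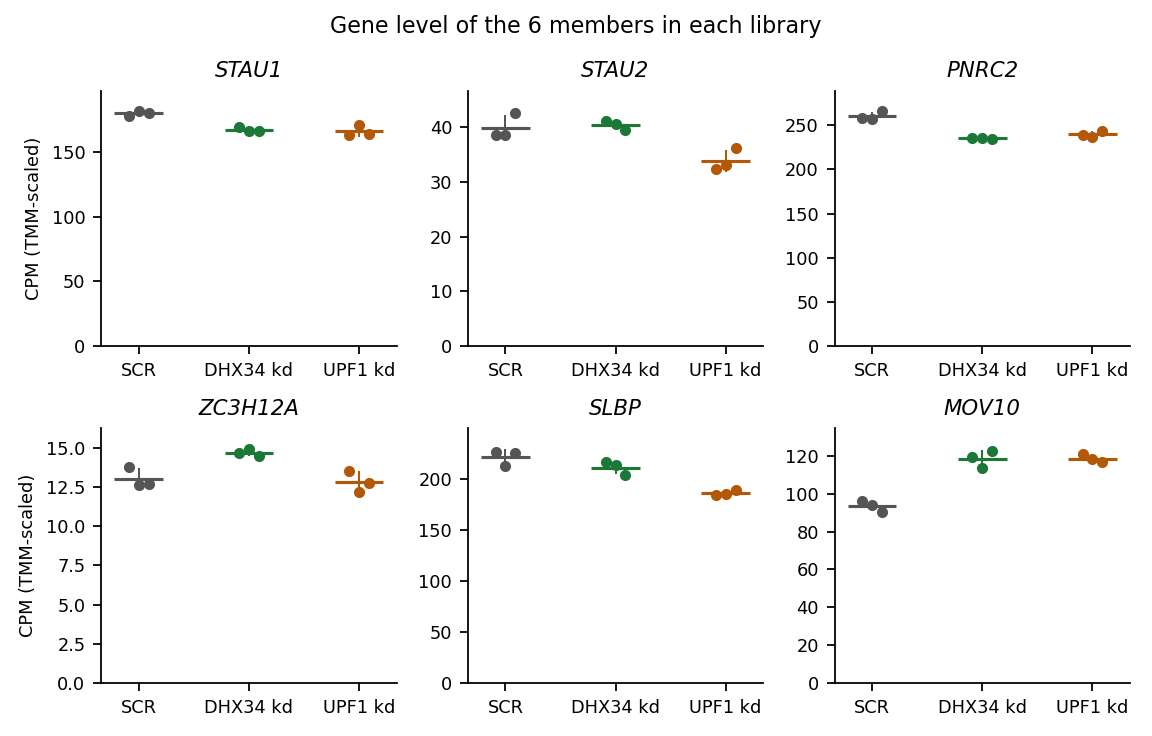
Level of each of the 6 genes in every library, in CPM, the counts of a gene scaled to a common library size, with TMM factors (y axis, from 0), by siRNA group (x axis). Points are libraries, the horizontal line is the mean and the vertical line 1 SD (n = 3). The 6 knockdown libraries of MOV10 lie between 113 and 122 CPM, above all 3 SCR libraries, and the UPF1 knockdown libraries of SLBP lie between 184.7 and 188.9 CPM, below the other 6.

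The scale of the comparison affects the smaller changes. Counts were scaled by TMM, which sets the bulk of genes equal between libraries, and its factors were 0.948 to 0.974 in SCR, 1.01 to 1.04 in DHX34-kd and 1.02 to 1.03 in the UPF1 knockdown. Under TMM the median log2 change of all genes tested was 0.02 in both knockdowns against SCR. Scaling by library totals moved that median to 0.10 after DHX34 knockdown and 0.12 after UPF1 knockdown, and log2(TPM + 0.5) moved it to 0.16 and 0.20. The split of calls over all genes moved with it: after UPF1 knockdown 49.0% of called genes were higher under TMM, 76.3% under library totals and 91.8% by TPM, and after DHX34 knockdown the shares were 53.3%, 79.3% and 87.8%. Changes below are TMM values unless another scale is named, so they are changes relative to the middle of all genes.

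**Figure D2:**
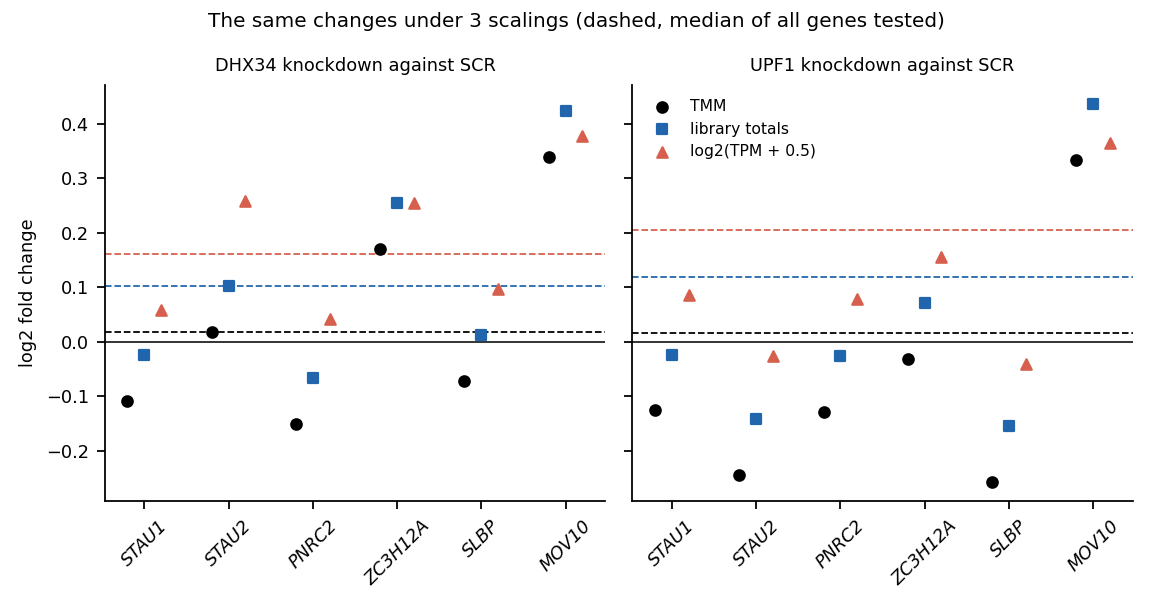
Log2 fold change of each gene (y axis) in each knockdown against SCR under TMM scaling, library totals and log2(TPM + 0.5). Dashed lines mark the median change of all genes tested under the same scaling. MOV10 lies above 0 and above the median in both panels under all 3 scalings, while STAU1 and PNRC2 lie below the median in both panels and above 0 by TPM.

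The order of the genes by length-scaled level was similar in all groups. In SCR, PNRC2 (145.7 TPM ± 1.52, SD, n = 3) and SLBP (144.3 ± 1.32) overlapped and were followed by STAU1 (59.1 ± 1.88), MOV10 (34.5 ± 0.842), STAU2 (23.8 ± 1.66) and ZC3H12A (5.55 ± 0.570), with no overlap between any other neighbours. In the DHX34 knockdown SLBP (154.3 ± 1.96) and PNRC2 (150.0 ± 5.11) again overlapped. In the UPF1 knockdown PNRC2 (154.0 ± 2.84) lay above SLBP (140.2 ± 0.721) in every library.

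MOV10 (ENSG00000155363, chromosome 1, 112673141 to 112700756, plus strand, GRCh38) stood at 95.9, 94.1 and 90.3 CPM in the SCR libraries, at 119.5, 113.3 and 122.3 CPM in DHX34-kd and at 120.7, 118.2 and 116.5 CPM in UPF1-kd. Every knockdown library was above every SCR library, on the TMM scale, on library totals and by TPM. The log2 change was 0.34 after DHX34 knockdown (95% interval 0.25 to 0.43, adjusted p = 0.00023) and 0.33 after UPF1 knockdown (0.26 to 0.41, adjusted p = 1.2e-05). Both calls held in all 6 fits that left out 1 library. With counts rescaled for the effective length of the isoform mix, the log2 changes were 0.22 and 0.15 and missed the threshold. Against each other the knockdowns differed by a log2 value of 0.01, with an interval of -0.07 to 0.09. An antisense noncoding gene lies within the locus, and whether the libraries keep strand is not given in the sources used here, so reads of the pair may not be separable.

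SLBP (ENSG00000163950, chromosome 4, 1692731 to 1712344, minus strand) read 226.5, 212.9 and 225.4 CPM in SCR, 216.3, 213.5 and 203.8 CPM in DHX34-kd and 184.7, 185.6 and 188.9 CPM in the UPF1 knockdown. The UPF1 knockdown libraries were the 3 lowest of the 9, and the DHX34 and SCR libraries overlapped. SLBP fell by 0.26 on the log2 scale after UPF1 knockdown (95% interval -0.32 to -0.19, adjusted p = 3.2e-05), a call that held in all 6 fits without 1 library. By TPM the UPF1 knockdown libraries were still the lowest, at 139.4 to 140.8 TPM against 143.2 to 145.8 TPM in SCR, but the log2 change was -0.04 and missed the threshold. After DHX34 knockdown the log2 difference was -0.07 (interval -0.16 to 0.02, adjusted p = 0.23), and by TPM all 3 DHX34 knockdown libraries were above SCR, at 152.1 to 155.7 TPM. Directly between the knockdowns SLBP was lower after UPF1 knockdown by 0.17 on the log2 scale (interval -0.24 to -0.10, adjusted p = 0.0021), and this call was kept in 1 of 6 fits without 1 library, the one without the DHX34 knockdown library of replicate 3.

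STAU2 (ENSG00000040341, chromosome 8, 73420369 to 73747708, minus strand) stood at 38.5, 38.5 and 42.7 CPM in SCR, at 41.2, 40.6 and 39.6 CPM in DHX34-kd and at 32.3, 33.0 and 36.1 CPM in UPF1-kd. The UPF1 knockdown libraries were below the other 6, whose ranges overlapped. STAU2 fell by 0.24 on the log2 scale after UPF1 knockdown (interval -0.36 to -0.13, adjusted p = 0.0029). The same call held in 2 of 6 fits without 1 library, those without SCR replicate 1 and without UPF1 knockdown replicate 3, and on library totals and by TPM the groups overlapped. After DHX34 knockdown the log2 difference was 0.02 (interval -0.09 to 0.13). Between the knockdowns STAU2 was lower after UPF1 knockdown by 0.25 (interval -0.35 to -0.14, adjusted p = 0.0025), which was kept in 2 of 6 fits, those without replicate 3 of either group. Of the annotated genes, 6 overlap this locus, on both strands, so its counts may hold reads of its neighbours.

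STAU1 (ENSG00000124214, chromosome 20, 49113339 to 49188367, minus strand) read 178.5, 181.9 and 180.8 CPM in SCR, 169.6, 166.7 and 166.6 CPM in DHX34-kd and 163.8, 171.1 and 163.9 CPM in the UPF1 knockdown. All 6 knockdown libraries were below all 3 SCR libraries on this scale. The log2 difference was -0.13 after UPF1 knockdown (interval -0.19 to -0.06, adjusted p = 0.0038), called with all libraries but in none of the 6 fits without 1 library, and -0.11 after DHX34 knockdown (interval -0.18 to -0.04, adjusted p = 0.033), which became -0.17 and a call once the trend with gene length was removed. On library totals the groups overlapped, and by TPM the UPF1 knockdown libraries, at 61.5 to 64.9 TPM, were above SCR, at 57.6 to 61.2 TPM. Relative to the median gene, STAU1 was lower under every scaling, by 0.12 to 0.17 on the log2 scale after UPF1 knockdown.

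PNRC2 (ENSG00000189266, chromosome 1, 23956839 to 23963462, plus strand) stood at 258.7, 257.5 and 266.1 CPM in SCR, at 235.8, 235.6 and 234.6 CPM in DHX34-kd and at 239.2, 236.7 and 244.0 CPM in UPF1-kd. The 6 knockdown libraries lay below SCR. The log2 difference of -0.13 after UPF1 knockdown (interval -0.19 to -0.07, adjusted p = 0.0023) was called, in 2 of 6 fits without 1 library as well, those without SCR replicate 2 and without UPF1 knockdown replicate 3. The somewhat wider difference after DHX34 knockdown, -0.15 (interval -0.22 to -0.08, adjusted p = 0.0067), just missed the threshold, and passed it with the trend with gene length removed (-0.16). By TPM the direction was the opposite, with 151.2 to 156.8 TPM after UPF1 knockdown against 143.9 to 146.6 TPM in SCR. Relative to the median gene by log2(TPM + 0.5), PNRC2 was still lower, at -0.12 after either knockdown.

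ZC3H12A (ENSG00000163874, chromosome 1, 37474580 to 37484377, plus strand) was the lowest of the 6 genes, with 888 to 1459 expected counts a library. It stood at 13.8, 12.7 and 12.7 CPM in SCR, at 14.7, 14.9 and 14.5 CPM in DHX34-kd and at 13.5, 12.2 and 12.8 CPM in UPF1-kd. The DHX34 knockdown libraries were above the other 6, and SCR and UPF1 knockdown libraries overlapped. The log2 difference of 0.17 after DHX34 knockdown (interval 0.03 to 0.31) had an adjusted p of 0.080, and that of -0.18 between UPF1 and DHX34 knockdowns (interval -0.32 to -0.05) one of 0.043, both beyond the threshold of 0.005. After UPF1 knockdown it was -0.03 (interval -0.18 to 0.11). In RNA from whole cultures, fewer expressing cells and less RNA per cell cannot be told apart, for this gene and the others.

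**Figure D3:**
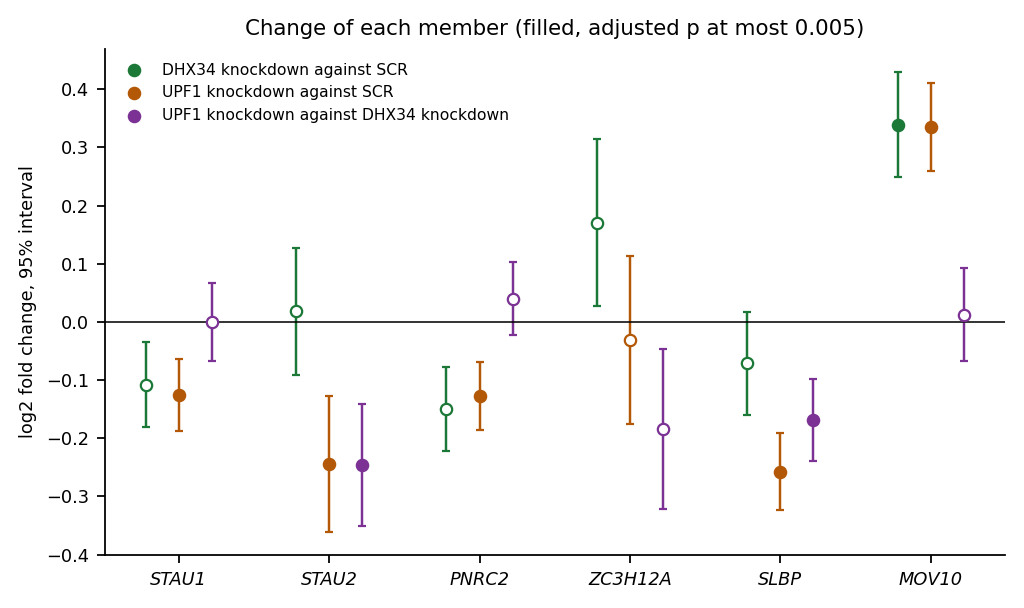
Log2 fold change of each gene with its 95% interval (y axis) in the 3 comparisons, TMM scaling. Filled points passed an adjusted p of 0.005 and open points did not. The 2 changes of MOV10 against SCR, 0.34 and 0.33, are the only filled points above 0.

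Transcripts were then examined one by one. Of the 68 transcripts of these genes, 40 had enough counts to be tested after DHX34 knockdown and 39 in each of the other comparisons. No member transcript passed edgeR's test at an adjusted p of 0.005 in any comparison, where 0.0463% of 60416 transcripts did after DHX34 knockdown, 2.59% of 62497 after UPF1 knockdown and 1.05% of 64325 between the knockdowns. At an unadjusted p under 0.05 there were 9, 10 and 7 member transcripts in these comparisons, against 15.2%, 22.7% and 18.6% of all transcripts. DESeq2 called 3, 8 and 2 of them, and 5.94%, 13.9% and 7.24% of all transcripts for which it gave an adjusted p. By TPM, 7 of 40 member transcripts lay above every SCR library after DHX34 knockdown and 2 lay below, where this held for 22.1% and 4.94% of all transcripts tested. After UPF1 knockdown 8 of 39 lay above and 3 below, against 32.0% and 4.95% of all transcripts. Between the knockdowns 2 of 39 were higher without overlap in the UPF1-kd libraries and 7 were lower, against 18.4% and 9.23%. No member passed the test of transcript usage (diffSpliceDGE, Simes p per gene, adjusted p of at most 0.05) in any comparison, where 3.55%, 6.28% and 4.41% of genes did. The smallest usage p before adjustment was 0.11, for MOV10 after UPF1 knockdown. Isoform values below are therefore descriptions.

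MOV10 was carried mainly by 3 protein-coding transcripts that share a coding sequence of 1003 codons and differ outside it. They end at 112700710 (MOV10-201), 112700739 (MOV10-203) and 112700746 (MOV10-204). In SCR the noncoding MOV10-215, described below, held more of the TPM than MOV10-204, 20.4% against 8.95%. MOV10-203 read 8.27, 7.67 and 7.11 TPM in SCR, 13.5, 11.7 and 13.3 TPM in DHX34-kd and 13.2, 14.0 and 12.7 TPM in the UPF1 knockdown. All 6 knockdown values exceeded all SCR values. It had the smallest adjusted p of all member transcripts in both knockdowns, 0.022 after DHX34 knockdown (log2 change 0.59) and 0.0060 after UPF1 knockdown (0.54). MOV10-201 was also higher in every knockdown library, at 16.1 to 18.4 TPM against 10.4 to 13.6 TPM in SCR. MOV10-204 overlapped between the groups, at 2.28 to 4.94 TPM.

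The retained-intron transcript MOV10-215, which covers the end of the gene and has 3 exons, went the other way. It read 7.59, 7.09 and 6.42 TPM in SCR and 5.45, 4.18 and 5.18 TPM in the DHX34 knockdown. In the UPF1 knockdown it was listed at 0, 4.63 and 4.41 TPM. All knockdown values were below SCR, but it rested on at most 270.3 expected counts a library, and its length was 705 bases in the tables and 1405 in the later annotation. With it, the share of MOV10 TPM in protein-coding transcripts was 67.3% ± 1.33 (SD, n = 3) in SCR, 74.3% ± 1.18 in DHX34-kd and 78.4% ± 3.26 in the UPF1 knockdown. The groups did not overlap, and the exact two-sided permutation test gave p = 0.1 for each pair, the smallest that 3 against 3 allows. The other noncoding transcripts held 11.1% to 14.4% of MOV10 TPM in SCR, 14.4% to 15.4% in DHX34-kd and 12.9% to 18.0% in the UPF1 knockdown. MOV10-215 was still part of the total in these shares, so they also rise when it falls. By expected counts rather than TPM the share outside protein-coding transcripts was 14.2% to 16.6%, 10.8% to 14.7% and 11.5% to 13.4%, so that only UPF1 knockdown and SCR stayed apart. Of the 3 members with retained-intron transcripts or transcripts without a defined coding sequence, the share of these by TPM did not overlap for 1 after DHX34 knockdown, 1 after UPF1 knockdown and 2 between the knockdowns, where this held for 13.0%, 18.9% and 14.5% of the genes with such transcripts.

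**Figure D4:**
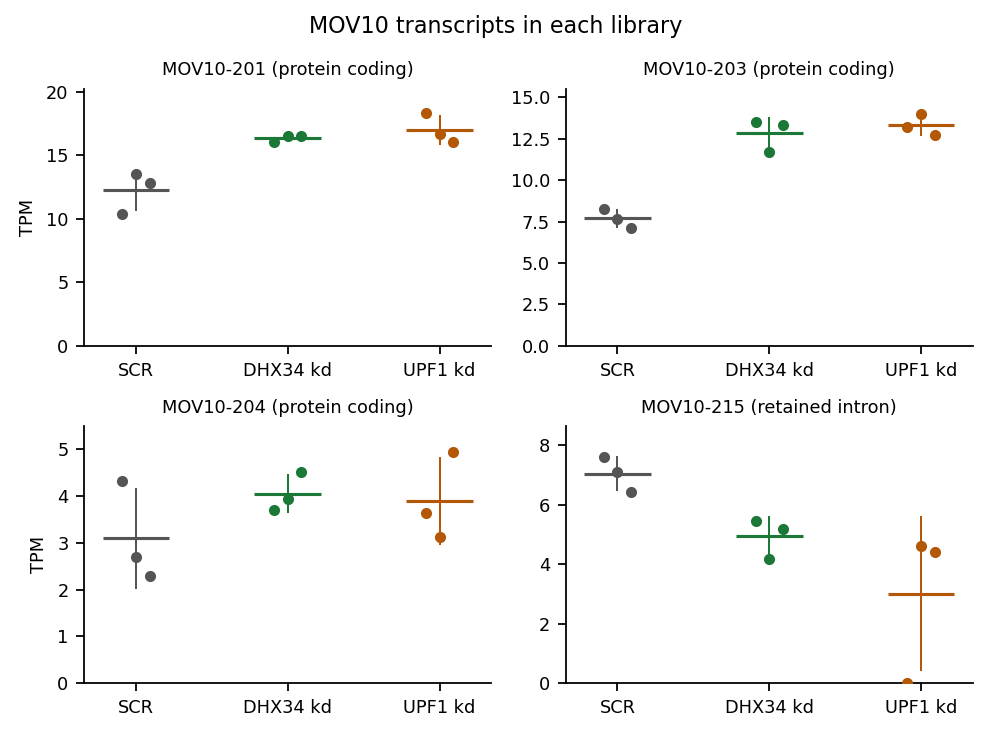
TPM of the 4 MOV10 transcripts with at least 5% of the gene's TPM (y axes, from 0) by siRNA group. Points are libraries, lines the mean and 1 SD (n = 3). MOV10-201 and MOV10-203 are higher in all 6 knockdown libraries than in SCR, and MOV10-215 is lower, with a UPF1 knockdown library listed at 0.

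SLBP had 3 main isoforms, which differ by whole exons and in their ends. SLBP-206 holds 8 exons and encodes 270 codons, SLBP-202 lacks the second of them (117 bases) and SLBP-205 the third (105 bases), leaving 231 and 235 codons. On the minus strand SLBP-205 also stops earlier, at 1693447 where SLBP-206 runs to 1692731. The junctions around the skipped exons are shown, since the exon choice changes the protein. The first of them is also held by SLBP-205. Each line gives the last 15 bases of the upstream exon in lower case and the first 15 of the downstream exon in capitals, from GRCh38 chromosome 4, minus strand.
SLBP-206, exon 1 to exon 2: cgacggtgacgccagCCCGCCGTCCCCCGC
SLBP-202, exon 2 of SLBP-206 skipped: cgacggtgacgccagCTTTACCACTCCTGA
SLBP-206, exon 2 to exon 3: gcgcagacccgagagCTTTACCACTCCTGA
SLBP-205, exon 3 of SLBP-206 skipped: gcgcagacccgagagATATAAAAGGAAACT

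SLBP-206 took 76.1% ± 1.74 of the gene's TPM in SCR, 74.7% ± 1.92 in DHX34-kd and 74.0% ± 1.64 in the UPF1 knockdown. Its level was 111.7, 106.1 and 111.5 TPM in SCR, 115.2, 116.9 and 113.7 TPM in DHX34-kd and 104.2, 101.4 and 105.8 TPM in the UPF1 knockdown. The 3 groups did not overlap by TPM. In the count fit it was lower after UPF1 knockdown, with a log2 difference of -0.33 and an adjusted p of 0.0065, which missed the threshold. After DHX34 knockdown the log2 difference in that fit was -0.08 (adjusted p = 0.62), opposite in direction to the TPM values. SLBP-205, which lacks the third exon, read 18.6, 19.8 and 19.2 TPM in SCR and 24.5, 24.4 and 27.2 TPM in the DHX34 knockdown. These did not overlap, but the adjusted p was 0.099 (log2 difference 0.25). In the UPF1 knockdown it read 20.0, 23.2 and 18.0 TPM. SLBP-202 overlapped between all groups, at 9.44 to 15.4 TPM.

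STAU1 was represented by protein-coding transcripts alone. STAU1-203 and STAU1-201 share a coding sequence of 496 codons, STAU1-206 has 502 and STAU1-207 has 577. STAU1-206 differs from STAU1-203 within the coding sequence by 18 bases, shown here in capitals with 6 bases on either side (chromosome 20, 49124588 to 49124605, minus strand), since they are what lengthens the coding sequence to 502 codons. The ends differ as well, at 49113341 in STAU1-206 and 49113523 in STAU1-203.
STAU1-206, inserted bases: ttcgagTCTTTCCCTCTGAAACAGgtggcc

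STAU1-206 read 12.3, 10.3 and 10.4 TPM in SCR, 8.89, 7.60 and 10.2 TPM in DHX34-kd and 11.2, 9.0 and 8.77 TPM in the UPF1 knockdown. It was lower in all DHX34 knockdown libraries than in SCR, and the UPF1 knockdown overlapped both. The log2 differences in the count fit were -0.48 (adjusted p = 0.10) and -0.45 (adjusted p = 0.073). Its share of the gene was 18.7% ± 2.36 in SCR, 14.4% ± 1.89 and 15.4% ± 2.31 in the knockdowns. STAU1-203, the main form, took 45.2% ± 4.52, 50.8% ± 4.71 and 49.1% ± 1.60 of the gene in the 3 groups.

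**Figure D5:**
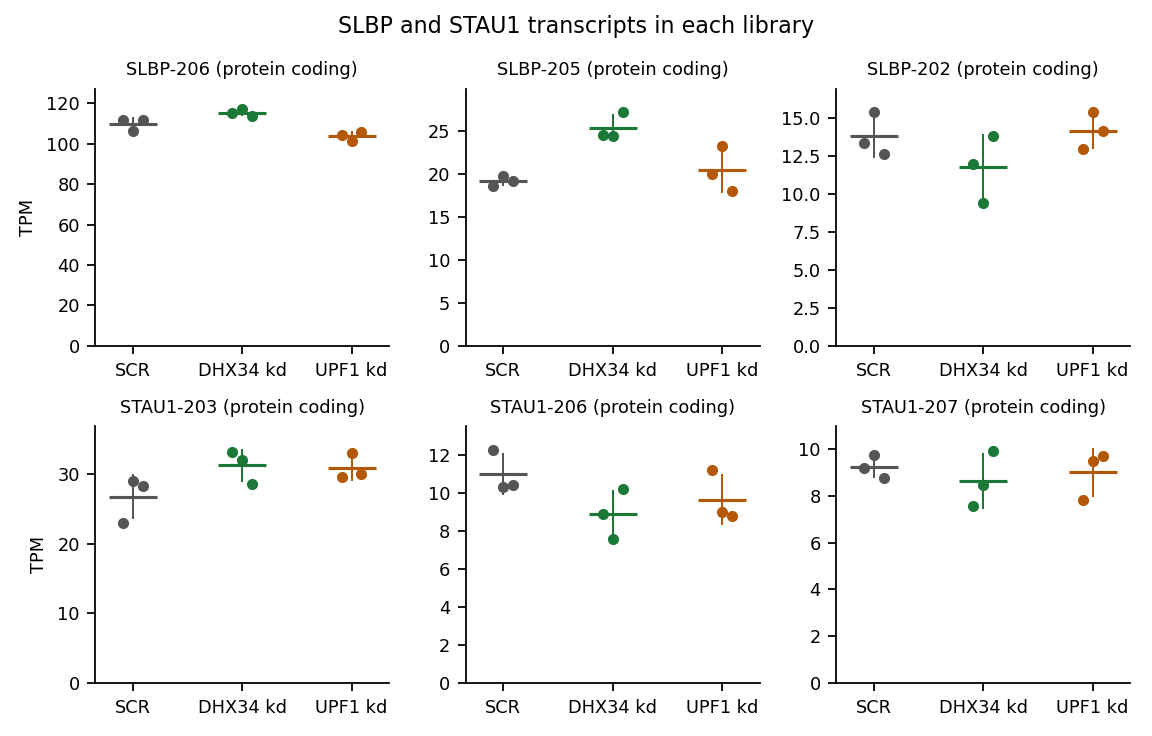
TPM of the 3 main SLBP transcripts (top) and of 3 STAU1 transcripts (bottom) by siRNA group, y axes from 0. Points are libraries, lines the mean and 1 SD (n = 3). SLBP-205 lies at 24.4 to 27.2 TPM in the DHX34 knockdown, above the 18.6 to 19.8 TPM of SCR, and STAU1-207 overlaps between all groups.

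PNRC2 was nearly all PNRC2-201, with 89.5% ± 1.22 of its TPM in SCR, 88.3% ± 1.16 in DHX34-kd and 90.4% ± 0.586 in the UPF1 knockdown. PNRC2-202, which has the same 139 codons and a shorter end, held 9.04% ± 0.860, 9.48% ± 0.630 and 7.56% ± 0.550. The UPF1 knockdown libraries of PNRC2-202, at 10.9 to 12.1 TPM, lay below those of the DHX34 knockdown, at 13.3 to 15.9 TPM, with an adjusted p of 0.14 (log2 difference -0.34). STAU2 was spread over more forms: STAU2-201 had 31.4% ± 4.28 of its TPM in SCR, 28.7% ± 4.79 in DHX34-kd and 29.5% ± 1.80 in the UPF1 knockdown, and 5 further transcripts reached 5% in some group. STAU2-201 was lower after UPF1 knockdown by a log2 difference of -0.37 (adjusted p = 0.039), although its TPM overlapped, at 6.51 to 7.12 against 6.98 to 8.12 TPM in SCR.

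Only quantified transcripts were examined, which for MOV10 were 16 of 26 annotated and for PNRC2 4 of 5. Among the quantified transcripts of the 6 genes, STAU2 and ZC3H12A had 1 each annotated as an NMD substrate. For ZC3H12A this is ZC3H12A-204, in which an exon is 84 bases longer and the reading frame ends after 283 codons rather than the 599 of ZC3H12A-201. The end of its coding sequence is shown with the stop codon in capitals (chromosome 1, 37482381 to 37482383, plus strand), 157 bases before the last exon junction.
ZC3H12A-204, end of the coding sequence: gcttgccatcggccccttctcagcaatTAG

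ZC3H12A-204 read 0.557, 0.20 and 0.749 TPM in SCR, 0.336, 0.743 and 0.598 TPM in DHX34-kd and 0.985, 0.623 and 0.728 TPM in the UPF1 knockdown. The groups overlapped, on 36.2 to 174.7 expected counts a library. Its share of the gene was 9.39% ± 5.95 in SCR, 8.43% ± 3.42 in the DHX34 knockdown (exact permutation p = 0.9 against SCR) and 12.5% ± 2.80 in the UPF1 knockdown (p = 0.4). The smallest p this design allows is 0.1, and no difference could be told from the spread between libraries. The NMD-annotated share of STAU2 was 1.17% ± 0.482, 1.51% ± 0.277 and 1.83% ± 0.642, also overlapping (exact permutation p = 0.3 for each knockdown against SCR). The NMD-annotated share kept its groups apart for 0 of these 2 genes in each comparison, where 11.5% of genes with such transcripts did so after DHX34 knockdown, 27.4% after UPF1 knockdown and 25.5% between the knockdowns.

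The genes that act beside these partners were described through 5 lists with 85 genes. After DHX34 knockdown 12 of the 77 genes tested were called (15.6%, against 10.4% of all genes), after UPF1 knockdown 25 of 76 (32.9%, against 25.3%) and between the knockdowns 11 of 77 (14.3%, against 17.4%). The split turned with the scaling: after UPF1 knockdown 9 were higher and 16 lower under TMM, 21 and 7 under library totals, and 14 and 0 by TPM, and after DHX34 knockdown 6 and 6 became 14 and 2 under library totals and 4 and 1 by TPM. Of the genes called under TMM, LSM14A, CSTF2, G3BP2 and YTHDF2 after UPF1 knockdown had the opposite sign by TPM, and none had it after the median of all genes was subtracted. With the trend of change with gene length removed, 6 of the 12 genes called after DHX34 knockdown and 6 of the 25 called after UPF1 knockdown moved by over 1.5 times, and none of the 11 called between the knockdowns did.

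In decapping, the route of PNRC2, all 20 genes were tested and 9 were called after UPF1 knockdown, where 25.3% of all genes were. DCP1A, the cofactor of the decapping enzyme that PNRC2 binds, rose from 22.9 CPM ± 1.01 (SD, n = 3) in SCR to 27.4 ± 0.578 after DHX34 knockdown and 31.7 ± 1.47 after UPF1 knockdown. Its log2 changes were 0.26 and 0.46 (adjusted p = 0.0038 and 1.6e-05), and it was also higher in the UPF1 than in the DHX34 knockdown, by 0.22 (adjusted p = 0.0039). The 5′ exonuclease XRN1 rose by log2 values of 0.29 and 0.35. The 7 called lower after UPF1 knockdown were led by NBDY, a small decapping-associated protein (log2 change -0.46), and by the ring subunits LSM3 (-0.34), LSM2 (-0.31), LSM6 (-0.24) and LSM7 (-0.22). After DHX34 knockdown LSM6 (-0.29), LSM5 (-0.28) and LSM7 (-0.26) were called lower. The ring subunits LSM1 and LSM4 were called in neither knockdown. Their log2 differences were -0.01 and -0.10 after UPF1 knockdown and -0.08 and -0.19 after DHX34 knockdown. With the gene length trend removed, LSM6 and LSM7 stood at -0.12 and -0.10 after UPF1 knockdown, and LSM6, LSM5 and LSM7 at -0.19, -0.17 and -0.16 after DHX34 knockdown. In the same fit DCP1A stood at 0.13 after DHX34 knockdown and XRN1 at 0.14 and 0.22. The median over the list was -0.12 after UPF1 and -0.08 after DHX34 knockdown, where that of all genes was 0.02.

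Of 16 genes of histone mRNA processing and decay, 4 were called after UPF1 knockdown, where 25.3% of all genes were. ZNF473, a zinc finger protein of histone pre-mRNA processing, rose (log2 change 0.27). TUT1 (-0.31), LSM10 of the U7 particle (-0.25) and the cleavage factor subunit CSTF2 (-0.18) were lower. After DHX34 knockdown TUT4, a uridylyltransferase (0.30), and NPAT, the activator of histone gene transcription (0.24), were higher. With the gene length trend removed NPAT stood at 0.14 and LSM10 at -0.16, and with length-scaled counts NPAT stood at 0.16. Of the 10 relatives of Regnase and Roquin, RC3H2 rose after UPF1 knockdown (0.19, and 0.09 without the length trend). NYNRIN rose after DHX34 knockdown, from 1.97 to 2.28 CPM in SCR to 3.92 to 5.0 CPM, by a log2 change of 1.05 (adjusted p = 0.00038), and was lower in the UPF1 than in the DHX34 knockdown by -1.57. The list medians stayed between -0.03 and 0.13.

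Among 19 tested silencing and UPF1-linked genes, where MOV10 acts, the Argonaute genes AGO4 and AGO3 rose after UPF1 knockdown, by log2 values of 0.71 and 0.27. AGO4 stood at 21.2 to 22.5 CPM in the UPF1 knockdown, at 12.8 to 13.8 CPM in SCR and at 13.7 to 14.8 CPM in DHX34-kd, and the UPF1 and DHX34 knockdowns differed by 0.63 (adjusted p = 9.4e-06). With length-scaled counts the changes of AGO4 were larger, 1.19 against SCR and 0.97 between the knockdowns, and by TPM 1.31 and 0.91. RIDA and FXR1 were called lower in both knockdowns, at -0.38 and -0.19 after DHX34 and -0.36 and -0.27 after UPF1 knockdown. YTHDF2 (-0.21) and G3BP2 (-0.20) were called lower after UPF1 knockdown under TMM. Of the 19 reported targets of these routes, 12 or 11 were tested. REL rose by 0.76 after DHX34 and by 0.45 after UPF1 knockdown, and JUN (0.43) and TFRC (0.40) rose after UPF1 knockdown. EGLN3 fell in both (-0.67 and -0.48), and IER3 (-0.39) fell after UPF1 knockdown. The targets were not divided by route.

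The genes whose centred log2 CPM followed each called member most closely over the 9 libraries were sought among 9493 protein-coding genes, by the root mean square difference. For MOV10 they were AGPAT4 (0.030), ANKS1A (0.032) and RNF24 (0.036), where MOV10 itself lay 0.280 from its SCR mean. For SLBP they were ARPC3 (0.019), TPMT (0.021) and IER5 (0.022), and for STAU2 YWHAH (0.025), CLP1 (0.025) and RBMXL1 (0.032). STAU1 was followed by TPX2 (0.015), TFG (0.015) and GOT2 (0.019), and PNRC2 by HSP90AA1 (0.019), MRS2 (0.020) and TRIP13 (0.020).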

How the data were processed

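The authors quantified reads with salmon 1.5.2 against Ensembl release 93 cDNA on GRCh38, with correction for GC bias. The deposited tables hold expected counts per transcript, estimated by the authors and not whole numbers, and TPM normalized by the authors for length and library. The authors' other tables hold p-values, q-values and effects of their own gene and splicing comparisons and were not used. Gene names, biotypes and coordinates came from GENCODE 44, matched on transcript ID for 97.9% of transcripts and 98.08% to 98.12% of the counts. The quantified and annotated lengths differed for several described isoforms, among them SLBP-206 (1977 and 1810 bases) and MOV10-203 (3552 and 3380). Exons, ends and codons given here are those of the annotation. Expected counts, summed per gene and rounded, entered edgeR 4.0.16 under R 4.3.3 (quasi-likelihood, TMM, filterByExpr at 10 counts), with the 6 libraries of a comparison in each fit, and transcripts were handled alike. The error of assigning reads to similar isoforms was not modelled. Usage was tested by diffSpliceDGE and shares by exact two-sided permutation in SciPy 1.17.1. Alternatives used DESeq2 1.42.0 and limma 3.58.1 on log2(TPM + 0.5). Named transcripts had at least 5% of their gene's TPM in a group. Of each list, up to 5 called genes per comparison and direction were named. LSM1 and LSM4, which were not called, were named beside the other ring subunits. Nearest genes had a mean of at least 5 CPM. The gene and usage tests were run on counts simulated for UPF1 knockdown against SCR only, with results not given here. The simulation changed a minority of genes in both directions, so it does not bear on the choice of scaling. The permutation tests were not simulated. Members and lists were chosen with earlier results of these data known. Strandedness is not given in the sources used here. Of the genes chosen to mark other cell types, 1 is not reported here, and the sums leave it out.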

Additional observations from a re-analysis of the deposited data

Results flagged for a closer look

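Among the 6 genes, 2 differed between the UPF1 and DHX34 knockdowns by the direct test. STAU2 was lower in the UPF1 knockdown, with a log2 difference of -0.25 (SE 0.0474, edgeR adjusted p = 0.0025, lower in 3 of 3 libraries), where 17.4% of all genes passed. SLBP was lower by the same test, with -0.17 (SE 0.0317, adjusted p = 0.0021, lower in 3 of 3 libraries). With 1 library left out the call was kept in 2 of 6 fits for STAU2 and in 1 of 6 for SLBP. Both calls were lost with length-scaled counts, with limma on log2 TPM and with the replicate block (adjusted p = 0.0076 and 0.0084). By TPM the libraries of SLBP stayed apart and those of STAU2 overlapped.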

How the results depend on the processing

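Of 18 log2 changes (6 genes in 3 comparisons), each under 17 alternatives, 226 of 306 values kept direction and side of the threshold, 43 lost the call, 8 gained it and 29 turned direction; the cause was not tested. The rise of MOV10 kept its direction under all 17 in both knockdowns and lost its call under length-scaled counts alone.

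For gene calls after DHX34 knockdown (1 with TMM), the count was 3 at an adjusted p of at most 0.05, 2 with DESeq2, with all 9 libraries in 1 fit or with no low-count filter, 3 with the gene length trend removed, and 0 with length-scaled counts. After UPF1 knockdown (5), it was 1 with length-scaled counts, 2 with library totals (an alternative chosen after seeing the data), and 1 with limma on log2(TPM + 0.1) or log2(TPM + 0.5). Between the knockdowns (2), it was 0 with length-scaled counts, with both limma fits and with the replicate block. Leaving out 1 library gave 1 after DHX34 knockdown, 2 to 4 after UPF1 knockdown and 0 to 2 between them. Calls over all genes moved as well. After DHX34 knockdown TMM called 942 higher and 826 lower, DESeq2 1436 and 1598, and length-scaled counts 412 and 355. After UPF1 knockdown TMM called 2131 and 2214, length-scaled counts 1360 and 1448, and log2(TPM + 0.5) 3290 and 292. Between the knockdowns these 3 gave 1724 and 1302, 1039 and 671, and 1037 and 431. Calls over all genes at 0.05, with all 9 libraries, with no low-count filter, with the replicate block or without 1 library are not given here. The counts above are not read as traits of these genes.

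For transcript calls (0 in each comparison), an adjusted p of at most 0.05 gave 1, 4 and 1. DESeq2 gave 3, 8 and 2, where it called 5.94%, 13.9% and 7.24% of all transcripts given an adjusted p. After UPF1 knockdown the fit of all 9 libraries and both limma fits gave 1. The shares of all transcripts called at 0.05, in the fit of all 9 libraries and in the limma fits are not given here. Usage calls (0) became 1 after DHX34 knockdown and between the knockdowns, for STAU2 without DHX34 knockdown replicate 1, and between the knockdowns for MOV10 without DHX34 knockdown replicate 3 (range 0 to 1).

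For the context lists after DHX34 knockdown (12), the count was 31 at an adjusted p of at most 0.05, 23 with DESeq2, 22 with all 9 libraries, 4 with length-scaled counts, 5 with both limma fits, 25 with no filter, 5 with the replicate block and 4 to 11 without 1 library. After UPF1 knockdown (25), it was 41 at 0.05, 14 with both limma fits and 19 to 24 without 1 library. Between the knockdowns (11), it was 22 at 0.05, 6 with length-scaled counts, 2 with both limma fits and 17 with no filter. The replicate block gave 6, and fits without 1 library gave 6 to 13. Calls over all genes moved too, as given for some of these settings above. By log2(TPM + 0.5) after DHX34 knockdown they were 803 higher and 112 lower. Calls over all genes at 0.05, with all 9 libraries, with no filter, with the replicate block or without 1 library are not given here. The list counts are therefore not read as traits of the lists.

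Members whose share of retained-intron transcripts or those without a defined coding sequence did not overlap between groups numbered 1 after DHX34 knockdown, 1 after UPF1 knockdown and 2 between them, and by share of expected counts 0, 1 and 0. Without 1 library these ranged over 1 to 2, 1 to 2 and 2 to 3, and the counts for the NMD-annotated share, 0 in each comparison, over 0 to 1, 0 to 2 and 0 to 1.

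Log2 changes that turned direction with limma on log2(TPM + 0.1) and log2(TPM + 0.5) were, after DHX34 knockdown, STAU1 (0.0592 and 0.0588), PNRC2 (0.0415 and 0.0414) and SLBP (0.0971 and 0.0969), and after UPF1 knockdown STAU1 (0.0873 and 0.0867), PNRC2 (0.0797 and 0.0795) and ZC3H12A (0.166 and 0.155). Between the knockdowns they were STAU1 (0.0281 and 0.028) and MOV10 (-0.0128 and -0.0127), and MOV10 also turned with length-scaled counts (-0.0478). By log2(TPM + 0.5) the median of all genes was 0.16 after DHX34 knockdown and 0.20 after UPF1 knockdown. Relative to it, STAU1 (-0.10), PNRC2 (-0.12) and SLBP (-0.06) were lower after DHX34 knockdown, as under TMM. So were STAU1 (-0.12), PNRC2 (-0.12) and ZC3H12A (-0.05) after UPF1 knockdown. With library totals SLBP after DHX34 knockdown (0.0119), ZC3H12A after UPF1 knockdown (0.0719) and STAU1 between the knockdowns (0.001) turned. Without 1 library, STAU2 after DHX34 knockdown ran from -0.0094 to 0.0707, ZC3H12A after UPF1 knockdown from -0.0722 to 0.0063, and between the knockdowns STAU1 from -0.0187 to 0.0118 and MOV10 from -0.0172 to 0.026.

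Replicate numbers were not treated as pairs in the main fits. Deviations from group means correlated at -0.39 to 0.28 between libraries of the same number, and not every library correlated best with its own. The same-number values were 0.28, 0.03 and 0.26 for UPF1 knockdown and SCR. They were -0.04, -0.25 and -0.39 for DHX34 knockdown and SCR, and -0.19, 0.13 and -0.19 for the knockdowns. Deviations of 3 libraries from their own mean are not independent, so these correlations cannot exclude pairing. With the replicate block the gene calls were 1, 5 and 0 in the 3 comparisons; between the knockdowns STAU2 (-0.25) and SLBP (-0.17) missed the threshold, and the NMD-annotated share after UPF1 knockdown had 1 member with all 3 same-numbered differences of a sign.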
